A study of Mus musculus with 9 samples.

Results

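Lyn, Btk, Plcg2, Cd81, Rasgrp3 and Prkcb are 6 genes of the B-cell receptor pathway, and their expression was followed in fluorescent neurons of the mouse amygdala. Rows of the deposited tables were taken where the Ensembl gene identifier maps to 1 of these symbols. All 6 genes were listed among the 11820 genes of the BA vs AP table, and 4 of them, all but Lyn and Btk, among the 9872 genes of the BA vs AV table, with 12275 genes listed in either. The 6 genes were chosen by their measured changes in these same tables. Prkcb had the largest increase and Rasgrp3 the largest decrease of the pathway between BA and AV mice, and Lyn had the largest increase and Btk the largest decrease between BA and AP mice, where Plcg2 stood close to Lyn. The values that chose Cd81 are not given in the sources used here. The changes of the 6 genes are therefore given as a description, without the p value of any single gene. Counts of the 6 genes under a p threshold stand beside the shares of all genes.

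Thy1-YFP mice (B6.Cg-Tg(Thy1-YFP)HJrs/J), which carry a yellow fluorescent protein under the Thy1 promoter, had performed a task that sets approach against avoidance, and were grouped by their behavior as balancing (BA), avoiding (AV) or approaching (AP). YFP-positive pyramidal neurons were sorted from the amygdala 1 month later and gave 1 library per mouse, so that the spread within a group is a spread between mice. All groups carry the transgene, which the Thy1 promoter drives in a subset of pyramidal neurons and which is not specific to the amygdala. The age of the mice is not given in the sources used here. The BA vs AV table holds 3 BA and 2 AV mice, since the authors left out 1 AV mouse as an outlier, and the BA vs AP table sets 3 AP mice against those BA mice again. Each value is a signal scaled between libraries and filtered on low counts. Since the tables were normalized separately, each group was compared with BA mice within its own table, and both comparisons share the BA mice. The BA vs AV values look adjusted beyond a factor per library. Under a value of 40, 76.0% to 84.8% of the values of a mouse beside AP mice are shared with another gene to 4 decimals, as whole reads times 1 factor would be, and 0.337% to 1.69% beside AV mice. For a BA mouse, the ratio of its value in the first table to that in the second also differs between genes, for example from 0.770 to 0.868 in the middle 90% of genes of BA mouse 2. What this did to the spread between AV mice, and so to the SD, SE, p values and calls of that comparison, was not tested. Log2 fold changes come from limma, a linear model fitted across all genes of a table, on log2(signal + 1), and are positive where the mean of AV or AP mice is higher. A gene is said to be called, to rise or to fall where its limma p, adjusted over all genes of its table, is under 0.05.

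The B-cell receptor is a membrane antibody that signals through the Cd79a and Cd79b chains when it binds antigen. The tyrosine kinases Lyn and Syk phosphorylate these chains, Btk then activates the phospholipase Plcg2, and its products release calcium and activate protein kinase C beta, encoded by Prkcb, and the Ras exchange factor Rasgrp3. Cd81 is a tetraspanin of the coreceptor complex at the cell surface. None of these genes is restricted to B cells. Lyn, Btk and Plcg2 are also used by microglia and other myeloid cells, Prkcb is abundant in many neurons, and Cd81 is present on most cell types.

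Promoter sequences are shown for the 4 genes with the largest differences or the lowest level that have an entry in the RefSeq table of GRCm38.p6, each as 250 bases before to 50 bases after a start site, on the strand of the gene. The Btk promoter lies at chrX:134583091-134583390 on the minus strand, that of Plcg2 at chr8:117498025-117498324, the upstream one of Rasgrp3 at chr17:75435655-75435954 and that of Prkcb at chr7:122288875-122289174, the last 3 on the plus strand. Capitals mark matches on either strand to the 6 letters of the PU.1 core, GAGGAA, of the GC box, GGGCGG, or of the TATA box, TATAAA, and no marked match overlaps another.
Btk: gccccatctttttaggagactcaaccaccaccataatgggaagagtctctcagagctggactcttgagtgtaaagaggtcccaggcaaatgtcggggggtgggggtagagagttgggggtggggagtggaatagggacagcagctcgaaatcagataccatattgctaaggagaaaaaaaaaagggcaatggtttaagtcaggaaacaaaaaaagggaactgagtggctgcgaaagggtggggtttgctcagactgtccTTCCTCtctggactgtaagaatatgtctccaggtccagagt
Plcg2: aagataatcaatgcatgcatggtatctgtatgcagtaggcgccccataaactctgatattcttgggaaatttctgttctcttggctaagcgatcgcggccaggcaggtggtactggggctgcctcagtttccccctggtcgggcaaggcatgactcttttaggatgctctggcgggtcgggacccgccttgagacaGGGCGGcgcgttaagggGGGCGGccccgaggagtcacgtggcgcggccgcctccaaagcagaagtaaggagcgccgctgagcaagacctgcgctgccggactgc
Rasgrp3: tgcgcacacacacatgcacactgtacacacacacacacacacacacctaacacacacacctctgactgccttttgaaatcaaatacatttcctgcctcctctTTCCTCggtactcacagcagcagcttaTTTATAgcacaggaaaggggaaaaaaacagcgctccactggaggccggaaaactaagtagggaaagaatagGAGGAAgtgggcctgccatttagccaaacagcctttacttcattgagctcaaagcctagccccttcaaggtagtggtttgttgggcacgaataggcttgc
Prkcb: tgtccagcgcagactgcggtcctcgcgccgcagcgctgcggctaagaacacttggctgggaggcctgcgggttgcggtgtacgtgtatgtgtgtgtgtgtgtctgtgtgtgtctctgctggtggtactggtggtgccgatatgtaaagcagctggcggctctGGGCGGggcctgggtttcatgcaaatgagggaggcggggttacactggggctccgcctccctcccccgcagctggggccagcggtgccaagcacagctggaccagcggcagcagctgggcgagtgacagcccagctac
The Btk promoter holds 1 PU.1 core, read on the opposite strand 10 bases after the start, and has a GC content of 49.3% and 3 CpG sites. The upstream Rasgrp3 promoter holds 2 PU.1 cores and 1 TATA box, with a GC content of 48.3%. GC boxes are found instead in the promoters of Plcg2 (2), Prkcb (1) and Cd81 (3), which have GC contents of 60.0%, 65.3% and 65.7% and between 19 and 23 CpG sites. The second Rasgrp3 start holds none of the 3 motifs, and Cd81 also holds 1 TATA box just after its start. The median promoter has a GC content of 52.7% and 7 CpG sites. Among all 32851 promoters of the table, 28.3% hold the PU.1 core, 35.7% the GC box and 13.6% the TATA box. A match is a description of letters and not evidence of binding.

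The libraries were first checked against their label as pyramidal neurons. The neuronal markers Rbfox3, Snap25 and Slc17a7 are listed in neither table, and only 4 of 16 neuronal markers are listed in each, namely Tubb3, Map2, Eno2 and Nrgn. Their summed level was between 0.0253% and 0.0335% of all values in BA mice and between 0.160% and 0.195% in AV mice, and 0.0266% to 0.0673% in AP mice, beside 0.0252% to 0.0296% in the BA mice of their table. The 6 oligodendrocyte markers together made up 4.22% to 4.93% of the values of BA mice and 1.09% to 1.76% in AV mice of the BA vs AV table, and 3.95% to 4.76% in AP mice, beside 4.05% to 4.68%. Read from the steps of 1 read in the BA vs AP table, 3816848 to 6719780 reads in the listed genes stand behind a mouse. The BA mice of the BA vs AV table are the same libraries, and the reads in listed genes of AV mice are unknown.

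Cd81 (ENSMUSG00000037706.17, chromosome 7 of GRCm38 from 143052739 to 143067934) was the most abundant of the 6 genes per kilobase of exon in every group. Its signal was 3666, 4209 and 3602 in BA mice 1, 2 and 3 and 1951 and 3010 in AV mice 1 and 3. Both AV mice lay below every BA mouse, with a log2 fold change of -0.65 ± 0.26 (SE). This difference was -0.34 without AV mouse 1 and -0.97 without AV mouse 3. In the BA vs AP table Cd81 was 4294, 5095 and 4267 in BA mice and 4592, 5810 and 4548 in AP mice. The groups overlapped, and the log2 fold change was 0.13 ± 0.22 (SE), with a 95% interval from -0.38 to 0.63. Exons of Cd81 share 104 bases with R74862 on the opposite strand. In these bulk libraries fewer cells of a type and less RNA per cell cannot be told apart, for Cd81 and for every gene below.

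Lyn (ENSMUSG00000042228.14, chromosome 4 from 3678115 to 3813122), the Src family kinase that starts receptor signaling and also feeds inhibitory receptors, was listed in the BA vs AP table alone. Its signal was 54.2, 65.5 and 152 in BA mice and 286, 193 and 284 in AP mice. Every AP mouse lay above every BA mouse, although BA mouse 3 stood well above the other BA mice. The mean was 90.4 ± 53.2 (SD, n = 3 BA mice) against 254 ± 53.5 (SD, n = 3 AP mice), a ratio of 2.81 and a log2 fold change of 1.61 ± 0.39 (SE). Exons of Lyn share 248 bases with the long noncoding Gm26857 on the opposite strand, and whether counting used the strand is not given in the sources used here.

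Btk (ENSMUSG00000031264.13, X chromosome from 134542336 to 134583570, minus strand), the Tec family kinase downstream of Lyn and Syk, was close to the limit of detection. It was listed at 15.9, 10.2 and 16.7 in BA mice and at 9.96, 15.5 and 3.08 in AP mice. The value of AP mouse 3 is below 5.24, its level of 3 reads, and so cannot be told from a gene with 0 reads. The groups overlapped, the log2 fold change of -0.73 ± 0.48 (SE) had a 95% interval from -1.82 to 0.37, and without AP mouse 3 it was -0.15. Btk lay at percentile 2.59 of all levels in that table. Lyn and Btk, neighbors in the pathway, had mean differences of opposite sign, and the interval of Btk includes 0.

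Plcg2 (ENSMUSG00000034330.10, chromosome 8 from 117498291 to 117635142), the phospholipase that Btk activates, had a higher signal than in BA mice in both other groups. It was 25.4, 19.6 and 24.4 in BA mice and 60.1 and 59.7 in AV mice. In the BA vs AP table it was 27.6, 24.5 and 33.9 in BA mice and 94.1, 64.3 and 104 in AP mice. No AV or AP mouse overlapped the BA mice. The log2 fold change was 1.35 ± 0.22 (SE) in AV mice, a ratio of 2.59, and 1.56 ± 0.26 (SE) in AP mice, a ratio of 3.05. Leaving out any mouse moved these differences only between 1.24 and 1.41 and between 1.42 and 1.76.

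Rasgrp3 (ENSMUSG00000071042.12, chromosome 17 from 75435896 to 75529054), which binds diacylglycerol and loads Ras with GTP, had its largest difference in AV mice. Its signal was 590, 674 and 650.1 in BA mice and 93.0 and 172 in AV mice, without overlap. The mean of 638 ± 43.3 (SD, n = 3 BA mice) stood against 133 ± 56.1 (SD, n = 2 AV mice), a ratio of 0.208 and a log2 fold change of -2.32 ± 0.30 (SE). The difference was -1.88 without AV mouse 1 and -2.76 without AV mouse 3. In the BA vs AP table it was 686, 788 and 780.4 in BA mice and 689.9, 523 and 569.7 in AP mice 1, 2 and 3. AP mouse 1 lay just inside the BA range, and the log2 fold change of -0.35 ± 0.22 (SE) had a 95% interval from -0.84 to 0.15.

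Prkcb (ENSMUSG00000052889.11, chromosome 7 from 122288751 to 122634402), the diacylglycerol-dependent kinase that leads to NF-kB in B cells, differed in the opposite direction in AV mice. Its signal was 228, 313 and 222 in BA mice and 1089.5 and 1069 in AV mice. The AV mice were nearly equal and far above every BA mouse, with a ratio of 4.25 and a log2 fold change of 2.10 ± 0.24 (SE). In the BA vs AP table it was 266, 389 and 256 in BA mice and 314, 358 and 640 in AP mice. Only AP mouse 3 exceeded all BA mice, so that the log2 fold change of 0.48 ± 0.32 (SE), with a 95% interval from -0.26 to 1.21, was 0.17 without it. Prkcb and Rasgrp3, which respond to the same lipid, lay on opposite sides of the BA mean in both AV mice.

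**Figure D1:**
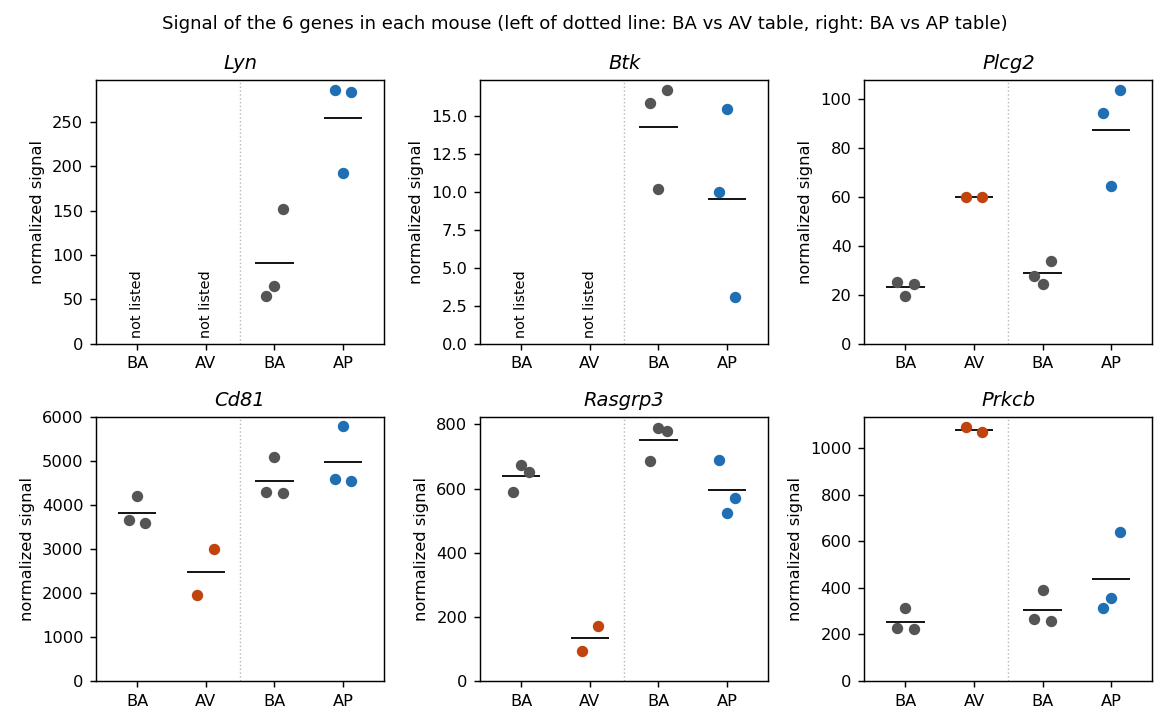
Normalized signal of each of the 6 genes in every mouse, on axes that start at 0, with the BA vs AV table left and the BA vs AP table right of a dotted line. Each point is 1 mouse and each line a group mean, and Prkcb is seen at 1089.5 and 1069 in both AV mice against 222 to 313 in BA mice, while Rasgrp3 lies at 93.0 and 172 against 590 to 674.

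In AV mice 3 of the 4 listed genes had a limma adjusted p under 0.05, where 29.7% of all genes did. Of the 3 genes, 2 were among the 13.6% of genes called higher and 1 among the 16.2% called lower. All 4 had groups that did not overlap, as had 58.9% of all genes. In AP mice 0 of the 6 genes were called by limma, as against 0.00846% of all genes (1 gene), while 2 had an unadjusted p under 0.05, which 7.77% of all genes reached. Lyn and Plcg2 were the 2 without overlap, beside 12.1% of all genes. Nothing is read from these counts, since the genes were selected on the same differences.

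Levels were also compared per kilobase of exon. In BA mice of the BA vs AP table the order was Cd81 (1581 ± 163 signal per kb, SD, n = 3), Rasgrp3 (129 ± 9.72), Prkcb (39.7 ± 9.71), Lyn (22.2 ± 13.1), Plcg2 (6.67 ± 1.11) and Btk (4.53 ± 1.12). The ranges of Prkcb and Lyn overlapped, and those of no other neighbors did. In AP mice Lyn (62.4 ± 13.1 per kb) stood above Prkcb (57.1 ± 23.2 per kb) by mean, again with overlapping ranges. In the BA vs AV table the order was Cd81, Rasgrp3, Prkcb and Plcg2 in BA mice and Cd81, Prkcb, Rasgrp3 and Plcg2 in AV mice, with no overlap between neighbors. Prkcb went from 33.2 to 141 signal per kb and Rasgrp3 from 109 to 22.7, so the pair changed places.

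**Figure D2:**
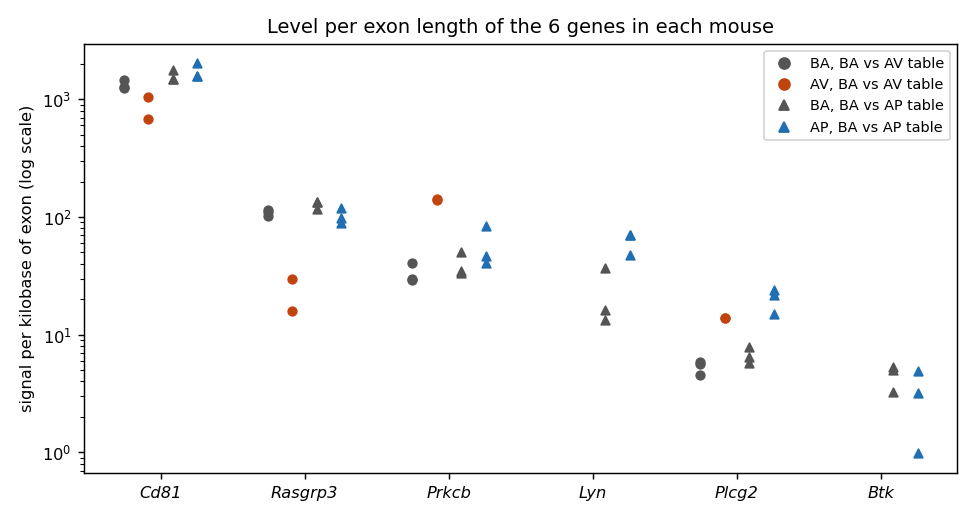
Normalized signal per kilobase of exon of the 6 genes on a log axis, in each table. Each point is 1 mouse, and Cd81 is highest in every group, with means from 862 to 1731, Btk is lowest where listed, and Rasgrp3 and Prkcb exchange their places between BA mice (109 and 33.2) and AV mice (22.7 and 141).

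Neuronal, microglial and lymphoid expression were set apart by marker genes measured in the same mice. Lymphoid markers were few. The B cell genes Cd79a and Cd79b are listed in neither table, and 1 of 16 B cell markers is listed in each. Ms4a1, listed beside AV mice, ranged from 6.60 to 17.2 with a log2 fold change of -0.55. Ighm, listed beside AP mice, ranged from 16.3 to 42.0 with a log2 fold change of 0.57, and limma called neither. Of 15 T and NK cell markers Cd8a alone was listed, in the BA vs AP table, at 7.41 to 42.9, and Cd3e and Cd3d were not. None of 6 neutrophil markers was listed. The tables were filtered on low counts, which limits what can be said of rare cells.

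Microglial markers moved with Lyn and Plcg2. In AP mice 17 of 18 were listed, and all 17 were higher without overlap and with an unadjusted limma p under 0.05, though 0 were called after adjustment. Their median log2 fold change was 1.54 (1.29 to 1.96), beside -0.03 for all genes. Cx3cr1, the fractalkine receptor of microglia, was 1.51, the purinergic receptor P2ry12 was 1.70, the microglial membrane protein Tmem119 was 1.96 and the growth factor receptor Csf1r was 1.29. The summed level of the list was 1979 to 4076 in BA mice and 5708 to 10009 in AP mice. Plcg2 at 1.56 and Lyn at 1.61 thus lay within the range of these markers, and the part of the microglial markers in their differences was not tested. Btk at -0.73 and Rasgrp3 at -0.35 did not share that direction.

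In AV mice 5 of 18 microglial markers were listed and all 5 rose, with a median of 1.42 (1.01 to 2.36). Tmem119 rose by 2.36 ± 0.29 (SE, limma adjusted p = 0.00365) and Cx3cr1 by 1.25 ± 0.33 (SE, limma adjusted p = 0.0309), a call lost without BA mouse 1, BA mouse 2 or AV mouse 3, with an adjusted p of up to 0.107. Laptm5 lost its call without the same mice and Fcer1g without any of the BA mice, while those of Tmem119 and C1qa held whichever mouse was left out. P2ry12 and Csf1r are listed in the BA vs AP table alone. The microglial sum was 406 to 607 in BA mice and 1103 to 1473 in AV mice. Plcg2 (1.35 and 1.34 in AV mice 1 and 3) was level in both. The median of the markers was 0.89 and 1.94 in these mice. Cx3cr1, C1qa, Fcer1g and Laptm5 had the higher signal in AV mouse 3. Only Tmem119 had the higher signal in AV mouse 1 (263) and the lower in AV mouse 3 (156). Their part in the difference of Plcg2 was not tested.

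Neuronal and glial markers moved in AV mice as well. Of 4 listed neuronal markers 3 rose, Nrgn by 3.08 ± 0.24, Map2 by 2.51 ± 0.26 and Eno2 by 2.22 ± 0.22 (SE), and Tubb3 was at 0.59. Their median over the list was 2.29 and 2.44 in AV mice 1 and 3, beside 2.11 and 2.09 for Prkcb. Of the oligodendrocyte markers 5 of 6 fell, with a median of -1.88 over the list, and by mouse the median was -2.28 and -1.47, beside -2.76 and -1.88 for Rasgrp3. Astrocyte markers rose in 4 of 5, with a median of 1.29, and of 2 listed endothelial markers 0 were called, with a median of -0.71. In AP mice the median was -0.09 for oligodendrocyte, 0.63 for astrocyte and 0.16 for endothelial markers. Limma called 0 of them, and 1, an astrocyte marker, had an unadjusted p under 0.05. Of the 4 neuronal markers in AP mice 0 were called and 0 had an unadjusted p under 0.05. Their median by mouse was -0.37, 0.52 and 1.59, beside 0.07, 0.26 and 1.10 for Prkcb. The part of these markers in the differences of Prkcb and Rasgrp3 was not tested.

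**Figure D3:**
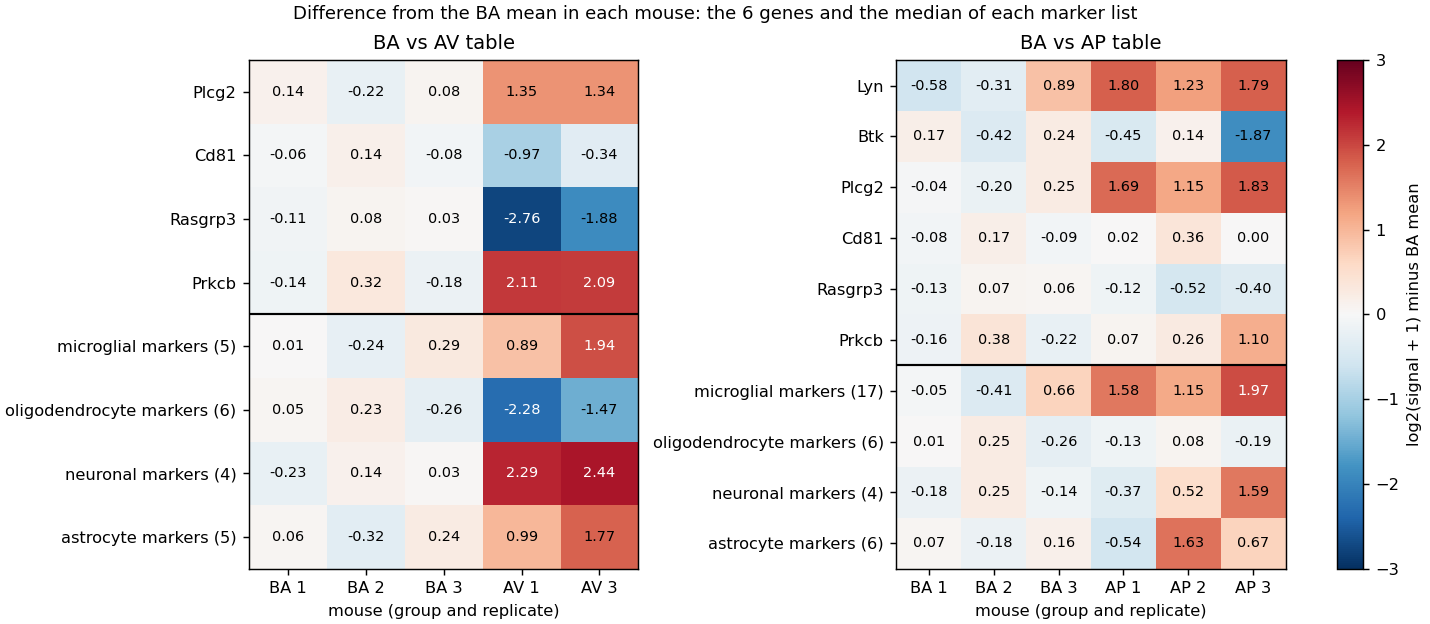
Log2 difference of every mouse from the BA mean for the 6 genes and for the median of each marker list, with the number of listed markers in parentheses. Each cell is 1 gene or list in 1 mouse. In AV mice Prkcb (2.11 and 2.09) is colored like the neuronal list (2.29 and 2.44) and Rasgrp3 (-2.76 and -1.88) like the oligodendrocyte list (-2.28 and -1.47), and in AP mice Lyn and Plcg2 are colored like the microglial list.

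The genes most like each member across the 6 mice of the BA vs AP table were listed by Pearson correlation of log2 values, over 10948 genes with a mean of at least 20. For Lyn these included Arhgap45 (r = 0.998) and Capn3 (0.991). Rasal3 (0.995), Selplg (0.993) and Gem (0.993) were most like Plcg2. Btk was most like Mettl1 (0.996), Pcdhb17 (0.991) and Vipas39 (0.989). Those nearest to Cd81 were Sdhc (0.990), Edf1 (0.979) and Hist1h1c (0.977). For Rasgrp3 they were Asnsd1 (0.990), Prdm4 (0.983) and Plekha5 (0.983), and for Prkcb Rtn1 (0.993), Tomm7 (0.980) and Taok3 (0.980). The 6 mice include both groups and share their libraries and depth, so these correlations are descriptions of likeness alone.

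The other 65 genes of the pathway list were then examined. In AV mice 34 were listed, of which 19 had a higher mean than BA mice and 15 a lower one. Limma called 11 of them (32.4%), where 29.7% of all genes were called. The median log2 fold change was 0.26. Of the 11 called genes 7 rose and 4 fell, but after centring each library on its median 5 were called higher and 6 lower. Without each of the BA mice in turn 4 were called, and 3 genes, Nfatc2 and Ikbkb among them, were called whichever mouse was left out. Groups did not overlap for 28 of the 34, beside 58.9% of all genes.

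By role, the receptor genes Cd79a, Cd79b, Cr2 and Ifitm1 and the adaptor Blnk are listed in neither table, and the proximal part of the pathway in the BA vs AV table came down to the phosphatase Inppl1 (-0.41) and the adaptor Grb2 (0.10), neither called. Among exchange factors limma called 0 of 3. Vav3, the 1 with an unadjusted p under 0.05, was 58.0, 23.6 and 59.8 in BA mice and 90.8 and 113 in AV mice. In the phospholipase and calcineurin arm 3 of 6 rose. The calcium-responsive transcription factor Nfatc2 was 42.4, 52.5 and 63.6 in BA mice and 147 and 214 in AV mice, an increase of 1.75 ± 0.28 (SE, limma adjusted p = 0.00634). The calcineurin regulatory subunit Ppp3r1 rose by 1.37 ± 0.29 (SE, adjusted p = 0.0156), lost without BA mouse 1 or 3, and the catalytic subunit Ppp3cb by 0.80 ± 0.25 (SE), with an adjusted p of 0.04996 that passed the threshold by little and was lost without any 1 mouse.

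In the protein kinase C and NF-kB arm, which lies downstream of Prkcb, 2 of 6 genes fell and none rose. This is 33.3% called, near the 29.7% of all genes. The kinase Ikbkb was 567, 369 and 442 in BA mice and 163 and 199 in AV mice, a decrease with a log2 fold change of -1.32 ± 0.26 (SE, limma adjusted p = 0.0121). The paracaspase Malt1 fell by 1.68 ± 0.46 (SE, adjusted p = 0.0339), and kept its call only where AV mouse 1 was the mouse left out. Both AV mice lay below the BA mice for these genes, whereas Prkcb lay above.

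In the PI3K and Akt arm 3 of 9 genes were called (33.3%), near the 29.7% of all genes. Pik3cd, the leukocyte catalytic subunit, rose by 1.67 ± 0.47 (SE, adjusted p = 0.0379), from between 12.04 and 24.9 in BA mice to 38.3 and 101 in AV mice, and the regulatory subunit Pik3r3 fell by 1.17 ± 0.26 (SE, adjusted p = 0.0183). In the Ras and MAP kinase arm 3 of 8 were called (37.5%). The GTPase Hras rose by 1.34 ± 0.30 (SE, adjusted p = 0.0187). The calls of Hras and Pik3cd were each lost without BA mouse 1, 2 or 3, and that of Pik3cd also without AV mouse 3, with adjusted p of up to 0.116 by limma, and that of Pik3r3 without BA mouse 2 (0.0642).

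In AP mice 49 of the 65 genes were listed, 31 higher and 18 lower, with a median of 0.14. Limma called 0 of them, and 8 (16.3%) had an unadjusted p under 0.05, all 8 higher in AP mice, where 4.99% of all genes passed in that direction and 2.77% in the other. Groups did not overlap for 8 genes, 5 higher and 3 lower, which is 16.3% and close to the 12.1% of all genes. The count at an unadjusted p under 0.05 was 5 without BA mouse 2 and 13 without AP mouse 2.

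Several of these 8 genes act close to the receptor. The kinase Syk, which docks on the phosphorylated receptor, was 41.4, 24.5 and 126 in BA mice and 120.3, 87.7 and 179 in AP mice, with a log2 fold change of 1.27 ± 0.55 (SE). BA mouse 3, which was also the highest BA mouse for Lyn and for the microglial median (0.66), overlapped the AP mice. The phosphatase Inpp5d, which opposes PI3K, was 136, 105 and 188 in BA mice and 424, 215 and 504 in AP mice (1.36 ± 0.37, SE), without overlap. The adaptor Dapp1 (1.31 ± 0.42, SE) and the exchange factor Vav1 of hematopoietic cells (1.10 ± 0.35, SE) had higher means as well. The part of the microglial markers in these differences was not tested.

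Further down the pathway, Nfatc1 (1.10), Nfatc2 (1.07), Pik3cd (1.196) and the NF-kB inhibitor gene Nfkbia (0.85) made up the remaining 4. The unadjusted p of Inpp5d, Nfatc1, Nfatc2 and Pik3cd stayed under 0.05 whichever mouse was left out. That of Vav1 went above 0.05 without BA mouse 2, that of Dapp1 without BA mouse 1 or 2, that of Syk without BA mouse 1 or 2 or AP mouse 1 or 3, and that of Nfkbia without BA mouse 1 or 3 or AP mouse 1 or 3. Other proximal genes had small differences, with 0.11 for the inhibitory Fc receptor Fcgr2b, 0.06 for Pirb, -0.17 for Inppl1 and -0.01 for Grb2. The largest differences in the other direction were those of Ikbkb (-0.39), the PI3K subunit Pik3cb (-0.39) and the exchange factor Sos2 (-0.33), none with an unadjusted p under 0.05.

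**Figure D4:**
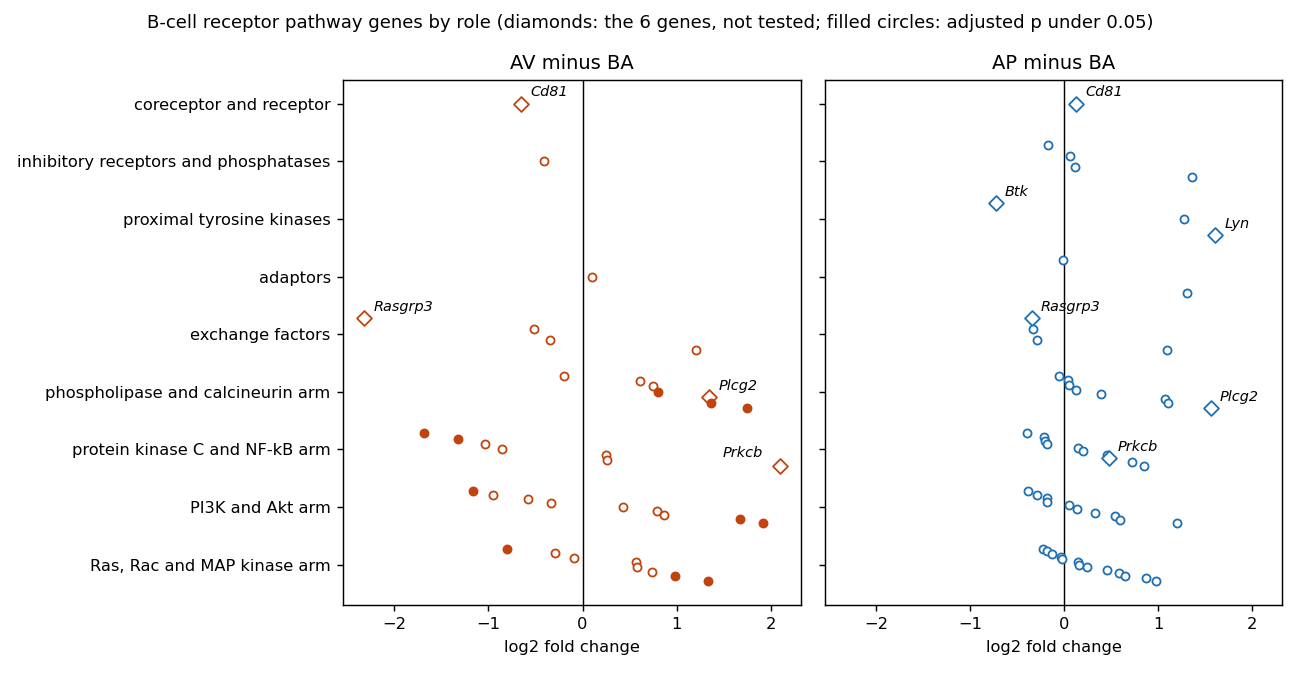
Log2 fold change of every listed pathway gene against BA mice, by role in the pathway, for AV mice and for AP mice. Circles are 1 gene each, filled where the limma adjusted p is under 0.05, diamonds are the 6 genes without a test, and the points for AV mice spread from -2.32 (Rasgrp3) to 2.10 (Prkcb), while those for AP mice lie between -0.73 (Btk) and 1.61 (Lyn).

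Relatives of the 6 genes were tested in the same fits. They did not enter the choice of the 6 genes, but their list was made with earlier results of these data known. In AV mice 27 of 48 were listed and 10 were called by limma, 5 higher and 5 lower. These are 37.0% of the listed relatives, near the 29.7% of all genes called. Of the protein kinase C isoforms, Prkce rose by 2.71 ± 0.24 (SE, limma adjusted p = 0.00278), from 63.2, 79.5 and 66.6 in BA mice to 406 and 519 in AV mice, and Prkcq fell by 1.34 ± 0.22 (SE, adjusted p = 0.00696). Prkca (-0.09), Prkci (0.24) and Prkcz (0.29) were not called, so Prkcb shared its direction with Prkce alone among the called isoforms. Prkce is a calcium-independent isoform, unlike Prkcb.

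Of 11 listed tetraspanins, the family of Cd81, 6 were called in AV mice (54.5%), where 29.7% of all genes were. Tspan2, a tetraspanin of oligodendrocytes, fell by 1.99 ± 0.33 (SE, limma adjusted p = 0.00677), from 9521 to 14083 in BA mice to 2251 and 4076 in AV mice, and Cd82 (-1.10), Tspan14 (-0.98) and Cd9 (-0.72) fell as well. Tspan13 (2.23) and Tspan7 (1.81) rose. Plcb1, a phospholipase C of neurons, rose by 1.22 ± 0.22 (SE, adjusted p = 0.00826) and was the only call among 7 phospholipase C isoforms, while Plce1 was at -0.84. Src rose by 1.18 ± 0.33 (SE, adjusted p = 0.0378) as the only call among 3 Src family kinases. Without BA mouse 1 or 2 the count of called relatives was 6, and Prkce, Prkcq, Plcb1, Tspan2, Tspan7 and Tspan13 were called whichever mouse was left out.

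In AP mice 35 relatives were listed, 0 were called by limma and 3 had an unadjusted p under 0.05. This is 8.57%, about the 7.77% of all genes, and so no result about the relatives. The 3 genes were Cd53, a tetraspanin of leukocytes (1.45 ± 0.43, SE), Prkce (1.29 ± 0.42, SE) and Tspan6 (1.15 ± 0.39, SE), all higher in AP mice. The lowest values were those of Rasgrp4 (-0.65) and Cd82 (-0.48). Of the Tec family, only Tec itself is listed beside Btk, with 0.75 ± 0.58 (SE).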

How the data were processed

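RNA of sorted YFP-positive amygdala pyramidal neurons was sequenced as low-input, stranded, paired-end libraries, 1 per mouse. The authors deposited a normalized signal per gene and mouse in 2 tables, made by TMM normalization and a filter on low counts. Their methods also name batch correction with ARSyN, without saying for which table, and the BA vs AV values do not follow from reads and 1 factor per library. Over 6352 genes with a mean of at least 100 in BA mice, the median SD of log2 values between BA mice is 0.21 in either table. The submitters' processing notes name bcl2fastq 2.20, Salmon 1.2 and GRCm38.p6. AV replicate 2 was not used here, and the authors state that 1 AV mouse was an outlier. No value of the BA vs AP table is under 2, and 79.8% to 87.2% of values under 40 lie within 0.02 of a step of 1 read. A level of 3 reads, counting error only, is 4.13 to 5.68. The sum of the values of a mouse is 4589304 to 5072766 there and 3267967 to 3974274 beside AV mice.

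Symbols, coordinates and exon lengths came from GENCODE M21 of GRCm38, with symbols for 9871 of 9872 and 11778 of 11820 genes. Promoters came from RefSeq, with no entry for Lyn. All genes of a table entered limma 3.58.1 (R 4.3.3) as log2(value + 1), without covariates. A gene counts as called where its p, adjusted by Benjamini-Hochberg over the table, is under 0.05. This scale understates changes of low genes. A positive log2 fold change means higher in AV or AP mice. The fit was tested on simulated data. Members, gene lists and the naming rule were chosen with earlier results of these data known.

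Named are the 6 genes, the 3 pathway genes with the largest changes in each direction, all listed genes near the receptor, called relatives and the 2 most changed each way in a table, defining cell type markers, and the 3 genes most like each member. Other called genes, or genes with an unadjusted p under 0.05, were added to these with their values known, and some genes that the rule covers are not reported here. Alternatives were other pseudocounts (0.5 and 5), a mean of at least 10, median centring, subtraction of the lowest value, a variance prior with a trend, a replicate block and each mouse left out in turn. Python 3.11.15, numpy 2.4.6, pandas 2.3.3, scipy 1.17.1 and matplotlib 3.10.9 were used.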

Additional observations from a re-analysis of the deposited data

Results flagged for a closer look

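Cd81 and 6 genes of the lists lay on opposite sides of the BA mean in AV and AP mice, with every AV mouse on 1 side and every AP mouse on the other. The log2 difference of Cd81 was -0.65 in AV mice and 0.13 in AP mice, of which AP mouse 3 was level with the BA mean (0.00). Nfatc3 had -0.19 and 0.13, the NF-kB subunit Rela -0.86 and 0.15, and the GTPase Rac1 -0.09 and 0.24. The opposite order was seen for Map2k1 (0.57 and -0.18), Rasgrp2 (0.56 and -0.38) and Prkcz (0.29 and -0.27). In AP mice the SE exceeded the difference for Cd81 (0.22), Nfatc3 (0.21), Rela (0.23) and Map2k1 (0.21). It was below the difference for Rac1 (0.22), Rasgrp2 (0.24) and Prkcz (0.23). The share of all genes with this pattern was not counted, so nothing is read from it. The difference between the groups was not tested, since the tables were normalized separately and share the BA mice.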

How the results depend on the processing

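All 126 values of the 6 genes under the alternatives kept their direction, and 122 moved by less than 1 SD between mice. Some of these values could not move. The variance prior with a trend and the filter at a mean of 10 leave the log2 fold change of a kept gene unchanged. The replicate block does so too against AP mice. The exceptions were Cd81 and Rasgrp3 without either AV mouse, and a fit that leaves 1 AV mouse assumes that it varies like the BA mice. With each mouse left out in turn, the log2 fold change against AV mice was between -0.97 and -0.34 for Cd81, between -2.76 and -1.88 for Rasgrp3, between 1.24 and 1.41 for Plcg2 and between 2.01 and 2.26 for Prkcb. Against AP mice it was between 1.32 and 2.05 for Lyn, between -1.16 and -0.15 for Btk, between 1.42 and 1.76 for Plcg2, between 0.01 and 0.21 for Cd81, between -0.46 and -0.26 for Rasgrp3 and between 0.17 and 0.68 for Prkcb. Calls between BA and AV mice numbered 1521 to 3497 of all genes, 4 to 11 of the pathway, 6 to 11 of the relatives and 12 to 20 of the markers, and a variance prior with a trend gave 20 for the pathway. Of all genes 1 was called in AP mice, and 0 to 15 with a mouse left out (15 without AP mouse 1). That count was 2 with a pseudocount of 0.5, with a mean of at least 10 or with the lowest value subtracted, 0 with a pseudocount of 5 and 10 with a trend, which also called 5 markers. Pathway genes and relatives had 0 calls in AP mice under all alternatives.

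Deviations of mice with the same replicate number had correlations of 0.02, 0.12 and 0.08 in the BA vs AP table and -0.06 and -0.04 in the other. The deviations of 2 AV mice mirror each other by construction, and the BA vs AV values look adjusted beyond a factor per library. These low correlations show no pairing by number and cannot exclude one. With the replicate number as a block the calls between BA and AV mice were 970 of all genes, 2 of the pathway, 4 of the relatives and 8 of the markers, and between BA and AP mice 0 of all genes. The reads in listed genes of AV mice are unknown, and Btk lies near the limit of detection.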
